A study of Mus musculus with 12 samples.

Results

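Il33, Il1rl1, Il1rap, Il1r1, Il18, Il15 and Il15ra were examined in mouse cardiomyocytes stimulated with cytokines of the interleukin-6 family. These 7 genes, of 22915 in the deposited table, were taken by their symbols, each from the single entry with that name. Il33 was selected on its log2 fold change with oncostatin M (OSM), as the largest rise, and Il15 on its large fall with leukemia inhibitory factor (LIF). The other members were taken because they encode the receptors of these ligands or close relatives. Therefore, the change of Il33 with either OSM protein, and that of Il15 with LIF, are given as a description, with no test.

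Interleukin-33 is a cytokine of the interleukin-1 family that is kept in the nucleus and acts as an alarm signal once it is released from stressed or dying cells. It binds ST2, the product of Il1rl1, which then recruits the accessory protein encoded by Il1rap. The same accessory protein serves the interleukin-1 receptor encoded by Il1r1, and both complexes signal through the adaptor MyD88. Interleukin-18, another ligand of the family, is made as a precursor that caspase-1 cleaves, and it has receptor chains of its own. In the heart, interleukin-33 is known as a product of fibroblasts and endothelial cells, and soluble ST2 is known as a serum marker of cardiac strain. Interleukin-15 belongs to another family, whose receptors share the common gamma chain. It is presented on the cell surface by its own receptor alpha chain, encoded by Il15ra, and is abundant as a transcript in striated muscle.

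Primary cardiomyocytes of male C57/Bl6 mice aged 12 weeks were cultured under normoxia and stimulated for 24 h, and RNA of 3 libraries per condition, 12 in all, was sequenced. The 4 conditions were sterile PBS as control, murine LIF (mLIF), which signals via LIFR, murine OSM (mOSM), which signals via OSMR, and human-like OSM (hlOSM), a murine OSM with the AB loop of the human protein that signals via both receptors. The sample labels give each protein at 25 ng/mL, whereas the study's methods state another concentration. The methods speak of biological replicates without saying from how many animals or preparations the 3 libraries of a condition came, so the p-values measure the spread between these libraries only. Because the deposited values hold almost no difference between replicate numbers, a second fit, in which each replicate number has its own level (the replicate block), is given wherever it changes a call. Values are normalized counts rounded to whole numbers, which added up to between 2745748 and 2911891 per library; the number of reads behind them is unknown. Cardiomyocyte markers were detected throughout, with a sum over 8 genes of 33853 to 50117 per library, while 8 endothelial markers added up to 1188 to 1700, 8 fibroblast markers to 1596 to 2158, 6 markers of smooth muscle cells and pericytes to 578 to 1046, and 8 macrophage markers to 286 to 392. These sums are not scaled by exon length, so they do not give the shares of the cell types. The cultures thus held transcripts of several cell types, and in such bulk RNA a change in the number of cells of a type and a change of RNA per cell cannot be told apart.

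All 7 genes are protein-coding, and their mm10 coordinates are those of the table. Il33 (ENSMUSG00000024810) lies at chr19:29925114-29960718 on the plus strand, and Il15 (ENSMUSG00000031712) at chr8:82331632-82403222 on the minus strand. Il15ra (ENSMUSG00000023206) lies at chr2:11705290-11734317, Il1rap (ENSMUSG00000022514) at chr16:26581704-26730117 and Il18 (ENSMUSG00000039217) at chr9:50554827-50581840, all on the plus strand. Il1r1 (ENSMUSG00000026072, chr1:40225080-40317257) and Il1rl1 (ENSMUSG00000026069, chr1:40429570-40465415) lie on the plus strand within a cluster of 6 receptor genes that spans 478 kb. Exons of Il1rap overlap those of Gm20319 on the opposite strand over 4.86% of their bases, and reads there are uncertain, since the strand setting of the counting is not given in the sources used here. No exon of the other members overlaps another gene.

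Promoter sequences, from 250 bases before to 50 bases after an annotated start, were available for 6 members from RefSeq (GRCm38.p6), not for Il15. Those of Il33 and Il1r1 are shown because these genes had the largest rises among the members, and each has 2 annotated starts that the counts per gene do not separate. Capitals mark matches on either strand to TTNNGNAA, the pattern searched for C/EBP factors.
Il33 start 1, chr19:29924863-29925162, plus strand: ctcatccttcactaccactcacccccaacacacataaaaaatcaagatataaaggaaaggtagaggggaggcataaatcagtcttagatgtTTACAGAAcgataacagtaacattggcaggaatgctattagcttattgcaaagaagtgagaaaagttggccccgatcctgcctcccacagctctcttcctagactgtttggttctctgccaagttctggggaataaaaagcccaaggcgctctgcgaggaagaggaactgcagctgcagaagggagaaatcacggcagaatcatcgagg
Il33 start 2, chr19:29945540-29945839, plus strand: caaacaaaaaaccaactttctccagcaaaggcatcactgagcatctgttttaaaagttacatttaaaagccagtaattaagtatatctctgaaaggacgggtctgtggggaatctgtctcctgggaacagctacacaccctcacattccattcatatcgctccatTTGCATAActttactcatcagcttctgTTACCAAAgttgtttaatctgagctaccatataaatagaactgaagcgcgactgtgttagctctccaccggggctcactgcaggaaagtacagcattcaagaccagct
Il1r1 start 1, chr1:40224830-40225129, plus strand: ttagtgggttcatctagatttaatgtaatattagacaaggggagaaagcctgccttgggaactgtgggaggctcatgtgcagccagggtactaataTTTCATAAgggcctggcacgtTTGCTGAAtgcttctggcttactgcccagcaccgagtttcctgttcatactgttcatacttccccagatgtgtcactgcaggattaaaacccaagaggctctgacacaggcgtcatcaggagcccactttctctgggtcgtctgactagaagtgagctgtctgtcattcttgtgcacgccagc
Il1r1 start 2, chr1:40266336-40266635, plus strand: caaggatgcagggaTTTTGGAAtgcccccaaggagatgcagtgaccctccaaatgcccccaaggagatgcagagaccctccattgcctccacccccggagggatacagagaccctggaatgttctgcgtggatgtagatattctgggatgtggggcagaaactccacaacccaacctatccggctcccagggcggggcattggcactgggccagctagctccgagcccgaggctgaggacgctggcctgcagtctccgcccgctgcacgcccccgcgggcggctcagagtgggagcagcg
The C/EBP pattern occurred 1 and 2 times in the 2 windows of Il33 and 2 and 1 times in those of Il1r1, and 40.7% of all 32851 promoters in the RefSeq table hold at least 1 match. The STAT pattern TTCNNNGAA, present in 8.30% of all promoters, had 0 matches in the 10 windows of the 6 members. The AP-1 pattern TGANTCA, present in 7.81% of all promoters, occurred in 1 of the 10 windows, the second of Il15ra, and no matches of different patterns overlapped in these 10 windows. A match describes the letters only and does not show that a factor binds there.

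Il33 was close to undetectable in control cells and was a well-detected transcript in OSM-treated cells. Its normalized counts were 11, 5 and 2 in the PBS libraries and 7, 18 and 18 in the mLIF libraries. They were 198, 183 and 251 in the mOSM libraries and 196, 173 and 261 in the hlOSM libraries. All 6 OSM-treated libraries were far above the 6 others, the mOSM and hlOSM libraries overlapped, and the lowest mLIF library lay below the highest PBS library.

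The mean of Il33 was 6.00 ± 4.58 (SD, n = 3) for PBS and 14.3 ± 6.35 (SD, n = 3) for mLIF, and it reached 211 ± 35.7 (SD, n = 3) for mOSM and 210.0 ± 45.6 (SD, n = 3) for hlOSM. The ratio of means to PBS was 35.1 with mOSM and 35.0 with hlOSM. The log2 fold changes, on the scale of log2(normalized count + 1), were 5.13 with mOSM and 5.11 with hlOSM (standard error 0.34 each), and against mLIF they were 3.88 and 3.87. Because the PBS libraries lay at 2 to 11, the size of this change depends on the added constant, and it was 4.36 and 4.35 with 5 in place of 1.

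The rise of Il33 with mLIF was small beside that with OSM. It amounted to a 2.39-fold ratio of means and a log2 fold change of 1.25 (standard error 0.34), which passed the threshold of an adjusted p under 0.05 (limma, adjusted p = 0.0232). The same PBS libraries entered the comparisons for which Il33 was chosen. The call rested on single libraries. It was lost without PBS replicate 3 (log2 fold change 0.75, adjusted p = 0.150), without PBS replicate 2 (1.25, adjusted p = 0.0520), and without mLIF replicate 2 or 3 (1.04 in both, adjusted p = 0.0994 and 0.128), all from limma. Over all 15 alternatives the adjusted p of limma lay between 0.000539 and 0.165.

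Between hlOSM and mOSM, Il33 differed by −0.01 on the log2 scale (95% interval −0.72 to 0.70, limma, adjusted p = 0.997). The interval admits a difference of either sign. The order of the Il33 levels was therefore PBS, mLIF and then both OSM proteins, where PBS overlapped with mLIF and the OSM proteins with each other.

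**Figure D1:**
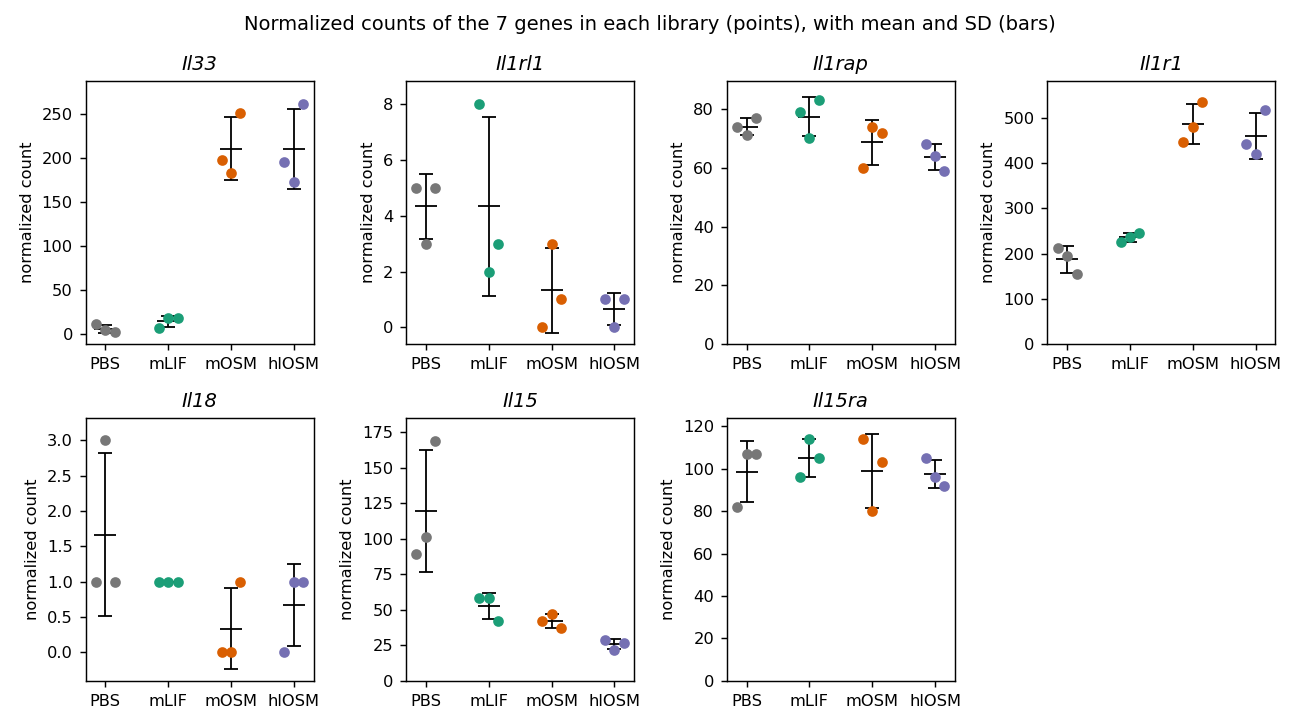
Normalized count (y axis, own scale for each gene) of the 7 members in the 3 libraries of each condition, with bars for the mean and SD. Il33 lies at 2 to 18 in the PBS and mLIF libraries and at 173 to 261 in the OSM-treated ones, Il1r1 rises to 420 to 535 and Il15 falls from 89 to 169 in PBS to 22 to 29 in hlOSM.

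The receptor genes on the interleukin-33 side did not follow their ligand. Il1rl1, which encodes ST2, had 5, 3 and 5 normalized counts in the PBS libraries and 8, 2 and 3 in the mLIF libraries. It had 0, 3 and 1 in the mOSM libraries and 1, 0 and 1 in the hlOSM libraries. The 3 hlOSM libraries were below all PBS libraries, and those of mOSM reached the lowest PBS value.

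Il1rl1 did not pass the filter of at least 10 normalized counts in at least 3 libraries and was not among the 13184 genes tested. Without this filter, in a fit of all 22915 genes, its log2 fold change was −1.72 with hlOSM (standard error 0.52, adjusted p = 0.0201), −1.39 with mOSM (adjusted p = 0.0726) and −0.14 with mLIF (adjusted p = 0.928), all from limma. Values this low, at most 8 in any library, allow no statement on size. The reads of the membrane-bound and the soluble form of ST2 are not separated in counts per gene.

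Il1rap, the accessory chain that both ST2 and the interleukin-1 receptor need, had a nearly even level. Its normalized counts were 74, 71 and 77 in PBS, 79, 70 and 83 in mLIF, 60, 74 and 72 in mOSM, and 68, 64 and 59 in hlOSM. The hlOSM libraries lay below the PBS libraries and those of the other conditions overlapped with PBS.

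For Il1rap the log2 fold change against PBS was 0.06 with mLIF (95% interval −0.18 to 0.30, adjusted p = 0.787), −0.11 with mOSM (−0.35 to 0.12, adjusted p = 0.495) and −0.22 with hlOSM (−0.45 to 0.02, adjusted p = 0.142), all from limma and none past the threshold.

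Il1r1, the signaling receptor for interleukin-1, was the receptor gene among the members that rose with all 3 cytokines. Its normalized counts were 212, 196 and 155 in PBS and 225, 237 and 246 in mLIF. They were 448, 479 and 535 in mOSM and 442, 420 and 518 in hlOSM. The mLIF libraries lay above those of PBS and the OSM-treated libraries above both, without overlap, whereas mOSM and hlOSM overlapped.

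With mOSM, Il1r1 rose 2.60-fold by the ratio of means, from 188 ± 29.4 (SD, n = 3) to 487 ± 44.1 (SD, n = 3), a log2 fold change of 1.38 (standard error 0.10, limma, adjusted p = 3.49e-10). With hlOSM it rose 2.45-fold to 460.0 ± 51.4 (SD, n = 3), with a log2 fold change of 1.30 (limma, adjusted p = 5.60e-10). Both also exceeded mLIF, by 1.04 (limma, adjusted p = 6.96e-08) and 0.96 (limma, adjusted p = 1.99e-07) on the log2 scale. The difference between hlOSM and mOSM was −0.09 (95% interval −0.28 to 0.11, limma, adjusted p = 0.906).

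The rise of Il1r1 with mLIF was 1.26-fold, with a log2 fold change of 0.34 (standard error 0.10, limma, adjusted p = 0.0265), and it also rested on single libraries. Without PBS replicate 3, the lowest of all libraries, it was 0.21 (limma, adjusted p = 0.180), and it was 0.34 and 0.31 without mLIF replicate 2 or 3 (limma, adjusted p = 0.0714 and 0.117). The adjusted p of limma lay between 0.00710 and 0.180 over 15 alternatives.

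Il1r1 was high within a receptor cluster that was otherwise almost silent. Il1r2, Il1rl1, Il18r1 and Il18rap, which lie in the same 478 kb of chromosome 1 as Il1r1, had at most 8 normalized counts in every library. Il1rl2, the next gene downstream of Il1r1 and a receptor chain for interleukin-36, had 22 to 46 normalized counts, with log2 fold changes of −0.32, 0.18 and −0.35 with mLIF, mOSM and hlOSM (limma, adjusted p = 0.277, 0.498 and 0.133).

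Il18, the ligand of the receptor chains Il18r1 and Il18rap, was at or near 0 in every condition. It had 1, 3 and 1 normalized counts in PBS, 1 in each mLIF library, 0, 0 and 1 in mOSM and 0, 1 and 1 in hlOSM. The conditions overlapped, and Il18 was not tested for the same reason as Il1rl1. Without the filter its adjusted p from limma was between 0.143 and 0.743 for the 3 cytokines.

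Il15 was lower in every cytokine-treated library than in any PBS library. Its normalized counts were 89, 101 and 169 in PBS and 58, 58 and 42 in mLIF. They were 42, 47 and 37 in mOSM and 29, 22 and 27 in hlOSM. The PBS libraries stood above all others, mLIF and mOSM overlapped, and each hlOSM library was below each library of the other 3 conditions.

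With mLIF, the comparison for which Il15 was chosen, its mean went from 120 ± 43.1 (SD, n = 3) to 52.7 ± 9.24 (SD, n = 3), a log2 fold change of −1.13. With mOSM it fell to 42.0 ± 5.0 (SD, n = 3), a log2 fold change of −1.44 (standard error 0.19, limma, adjusted p = 3.77e-06). With hlOSM it fell to 26.0 ± 3.61 (SD, n = 3), 0.217 times the PBS mean, with a log2 fold change of −2.11 (standard error 0.19, limma, adjusted p = 1.11e-08). These comparisons share the PBS libraries with the one that chose the gene. Without PBS replicate 3, the highest library, the log2 fold changes were −1.16 with mOSM and −1.84 with hlOSM, and both stayed past the threshold.

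hlOSM gave lower Il15 levels than mOSM, at 0.619 times its mean and a log2 difference of −0.67 (95% interval −1.07 to −0.28). The unadjusted p of limma was 0.00177, but the adjusted p over all genes was 0.294, so this difference did not pass. Between these conditions 0.106% of all genes tested passed the threshold. The libraries of mOSM and hlOSM did not overlap for Il15, and how many other genes separate in this way was not counted. Against mLIF, the log2 differences of Il15 were −0.31 with mOSM and −0.98 with hlOSM, as a description.

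Il15ra, the chain that presents interleukin-15, stayed within the same range in all conditions. It had 82, 107 and 107 normalized counts in PBS, 96, 114 and 105 in mLIF, 114, 80 and 103 in mOSM and 105, 96 and 92 in hlOSM, and all 4 ranges overlapped. The log2 fold change against PBS was 0.10 with mLIF (95% interval −0.16 to 0.35, adjusted p = 0.669), 0.00 with mOSM (−0.26 to 0.26, adjusted p = 0.999) and −0.01 with hlOSM (−0.26 to 0.25, adjusted p = 0.976), all from limma.

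The balance between ligand and receptor transcripts therefore shifted for interleukin-15. Per kilobase of exon, which allows a comparison of levels between genes, the ratio of Il15 to Il15ra was 2.13, 1.86 and 3.11 in the PBS libraries. It was 1.19, 1.00 and 0.787 in mLIF, 0.724, 1.16 and 0.706 in mOSM and 0.543, 0.451 and 0.577 in hlOSM. On this scale, Il15 exceeded Il15ra in every PBS library and was below it in every hlOSM library. That holds for PBS only with the annotated exon length taken into account. As normalized counts, PBS replicate 2 had 101 for Il15 and 107 for Il15ra. Since Il15 carried this shift, it is a description as well.

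On the same scale of normalized counts per kilobase of exon, Il15 was the highest member in PBS, at 52.9 ± 19.1 (SD, n = 3), followed by Il1r1 at 29.5 ± 4.62, Il15ra at 22.2 ± 3.25, Il1rap at 6.51 ± 0.264, Il33 at 2.08 ± 1.59, Il18 at 1.62 ± 1.12 and Il1rl1 at 0.629 ± 0.167. There, neighbours in this order overlapped in mean ± SD, except for Il15ra and Il1rap and for Il1rap and Il33. With mOSM, Il1r1 at 76.6 ± 6.93 and Il33 at 73.0 ± 12.4 were highest and overlapped in mean ± SD. They were followed by Il15ra at 22.3 ± 3.90 and Il15 at 18.6 ± 2.21, which also overlapped. With hlOSM, the levels per kilobase were 72.8 ± 15.8 for Il33, 72.3 ± 8.08 for Il1r1, 21.97 ± 1.498 for Il15ra and 11.5 ± 1.59 for Il15, of which Il15ra and Il15 did not overlap. The order of the leading ligand thus went from Il15 in PBS to Il33 with both OSM proteins, which follows from how these genes were chosen.

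**Figure D2:**
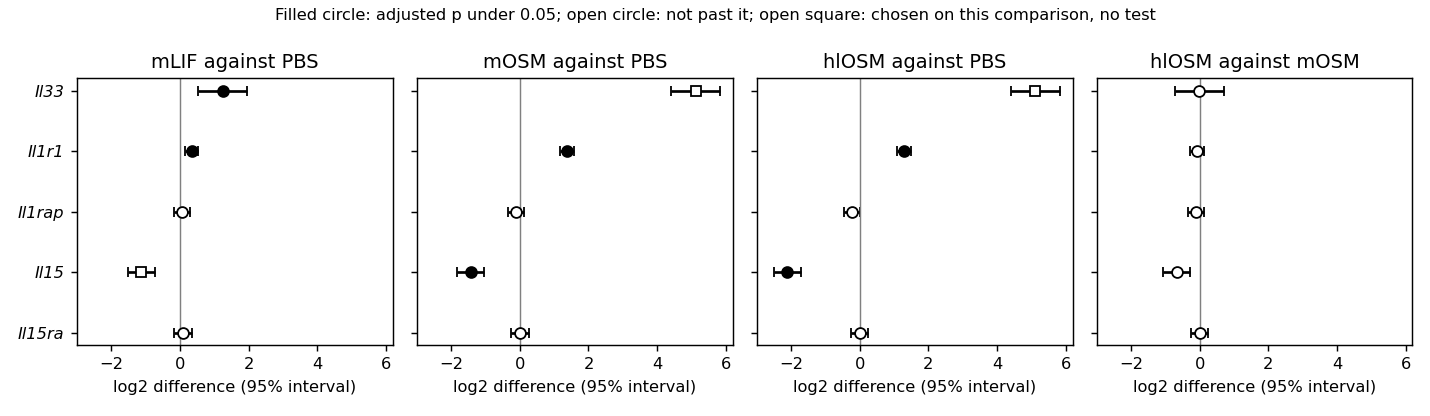
Log2 difference (x axis) with its 95% interval for the 5 members that passed the filter, in each cytokine against PBS and in hlOSM against mOSM. Il1r1 lies at 1.38 and 1.30 and Il15 at −1.44 and −2.11 with mOSM and hlOSM, while the intervals of Il1rap and Il15ra include 0 in all 4 panels.

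Among the 5 members that passed the filter, Il33 and Il1r1 were past the threshold as raised with mLIF, and Il15, which was chosen for its fall there, was not tested. Of all 13184 genes tested, mLIF raised 5.47% and lowered 4.44%. With mOSM and with hlOSM, Il1r1 was raised and Il15 lowered, and Il33, chosen for its rise there, was not tested. The background was 15.4% raised and 15.8% lowered with mOSM, and 18.2% raised and 19.8% lowered with hlOSM. No more is read from these counts, since Il33 and Il15 entered through such values.

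Between hlOSM and mOSM, 0 of the 5 members passed (limma), and Il15 was the 1 with an unadjusted p under 0.05. Against mLIF, Il1r1 passed with mOSM, where 11.8% of all genes did, and with hlOSM, where 16.6% did. Il33 and Il15 were not tested there, and Il1rap and Il15ra did not pass. Between hlOSM and mLIF, Il1rap differed by −0.28 on the log2 scale (95% interval −0.51 to −0.04). Its p from limma was 0.0240 unadjusted and 0.106 adjusted. The changes of mLIF and mOSM, added on the log2 scale, came to −2.57 for Il15 and 1.72 for Il1r1, beside −2.11 and 1.30 with hlOSM. All of these share the PBS libraries and are given side by side only.

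Marker levels of other cell types moved along with these changes. The sum of 8 endothelial markers was 1188, 1221 and 1262 (lowest, median and highest library) in PBS and 1201, 1263 and 1266 in mLIF, but 1471, 1577 and 1700 in mOSM and 1477, 1577 and 1590 in hlOSM. Of these 8 markers 6 rose and 0 fell with each OSM protein, beside 15.4% and 18.2% of all genes that mOSM and hlOSM raised. Under the replicate block 5 in place of 6 rose with hlOSM. With mLIF 0 rose and 1 fell, beside 4.44% of all genes lowered. This was Pecam1, with a log2 fold change of −0.28 (limma, adjusted p = 0.00916). The sum of 8 fibroblast markers was lower, with a median of 1924 in PBS that went to 1842 with mLIF, 1751 with mOSM and 1644 with hlOSM. Among them, 1 rose and 4 fell with mOSM, and 2 rose and 6 fell with hlOSM, with 1 in place of 2 rises under the replicate block. With mLIF 0 rose and 1 fell, Col1a2 (limma, adjusted p = 0.0469), a call lost with the replicate block (limma, adjusted p = 0.0755). Dcn rose with both OSM proteins, from a mean of 222 in PBS to 474 with mOSM and 441 with hlOSM. The sum thus joins changes in opposite directions. Over all genes mOSM lowered 15.8% and hlOSM 19.8%.

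The sum of 8 cardiomyocyte markers had a median of 48550 in PBS, which went to 42040 with mLIF, 34924 with mOSM and 36141 with hlOSM. None of the 8 markers rose, and 6, 7 and 7 fell with mLIF, mOSM and hlOSM, beside 4.44%, 15.8% and 19.8% of all genes, and under the replicate block 4 in place of 6 fell with mLIF. Of 6 smooth muscle and pericyte markers, 4 fell with mOSM and 5 with hlOSM. The macrophage sum had a median of 327 in PBS and 308 in mLIF, and of 372 and 358 in the OSM-treated cells. The one macrophage marker that rose with all 3 cytokines was Cd68, by 0.61, 1.22 and 1.28 on the log2 scale. Itgam fell with mOSM, with a log2 fold change of −1.13 (limma, adjusted p = 0.0324), a call lost with the replicate block (limma, adjusted p = 0.0622), and Lyz2 fell by 0.27 with hlOSM (limma, adjusted p = 0.0163), while Adgre1, Csf1r and Ptprc did not pass with any cytokine. The 2 lymphocyte markers in the table, Cd4 and Cd8a, summed to 0 to 5 per library. The part of these cell types in the changes of Il33, Il1r1 and Il15 was not tested.

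**Figure D3:**
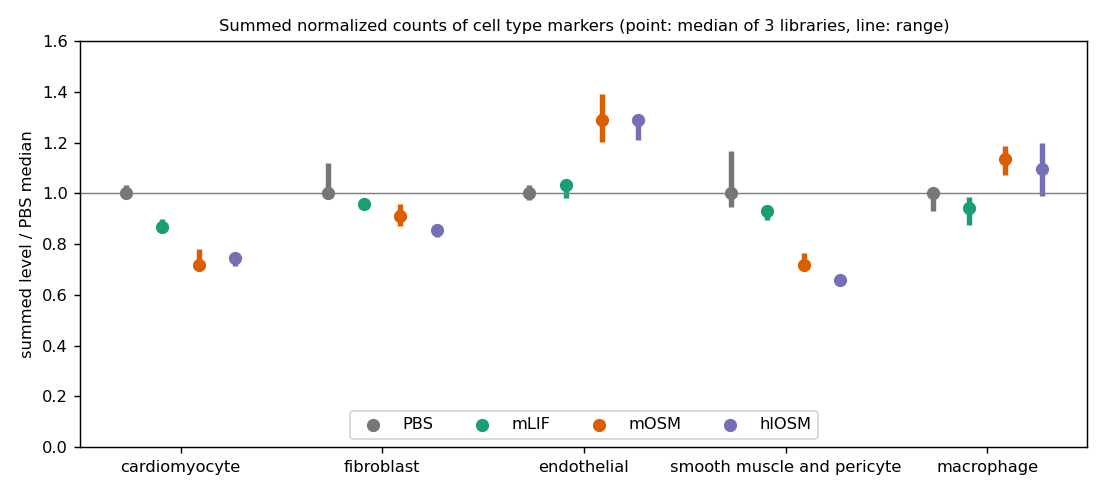
Summed normalized count of each marker list, divided by its PBS median (y axis), as the median (point) and range (line) of the 3 libraries of each condition. The endothelial sum rises from 1188 to 1262 in PBS to 1471 to 1700 in mOSM, and the cardiomyocyte sum falls from 48201 to 50117 to 33853 to 37907.

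Besides Il33, the interleukin-1 family was represented by few ligand transcripts. Of 11 ligands and antagonists, 6 were in the table and 2 were tested. Il1a reached at most 6 normalized counts, Il1b at most 2 and the receptor antagonist Il1rn at most 9. Il18bp, a secreted decoy that binds interleukin-18, was the other tested gene.

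Il18bp had 49, 53 and 39 normalized counts in PBS, 64, 62 and 69 in mLIF, 90, 92 and 80 in mOSM and 66, 61 and 97 in hlOSM. All treated libraries lay above those of PBS. The log2 fold change was 0.89 with mOSM (adjusted p = 7.13e-05), 0.64 with hlOSM (adjusted p = 0.00164) and 0.47 with mLIF (adjusted p = 0.0466), all from limma. The last call was lost in 9 of 15 alternatives, over which its adjusted p from limma lay between 0.0347 and 0.217, with 0.0930 under the replicate block, and the change was 0.34 on the log2 scale without PBS replicate 3.

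Downstream of the interleukin-1 and ST2 receptors, the 17 signal transducers were all tested, and most did not pass. With mLIF 1 rose and 0 fell, with mOSM 2 rose and 1 fell, and with hlOSM 2 rose and 3 fell. Over all genes, mLIF raised 5.47% and lowered 4.44%, mOSM raised 15.4% and lowered 15.8%, and hlOSM raised 18.2% and lowered 19.8%. The median log2 fold change of the list was −0.02, 0.01 and −0.05, against 0.00, 0.00 and −0.01 over all genes tested. Myd88 and Irak4, the adaptor and the kinase that open the cascade, were the genes that rose.

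Myd88 had 136, 121 and 110 normalized counts in PBS, 159, 181 and 172 in mLIF, 215, 226 and 220 in mOSM and 202, 188 and 256 in hlOSM. None of the treated libraries overlapped with PBS. Its log2 fold change was 0.48 with mLIF (adjusted p = 0.00356), 0.85 with mOSM (adjusted p = 6.97e-07) and 0.80 with hlOSM (adjusted p = 1.11e-06), all from limma.

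Irak4 had 34, 29 and 31 normalized counts in PBS, 31, 31 and 48 in mLIF, 46, 55 and 55 in mOSM and 64, 63 and 43 in hlOSM. The OSM-treated libraries lay above those of PBS, whereas mLIF overlapped with PBS. Irak4 rose by 0.71 with mOSM (adjusted p = 0.00361) and 0.82 with hlOSM (adjusted p = 0.000907), both from limma. With mLIF its log2 fold change was 0.19 and did not pass (limma, adjusted p = 0.525). Peli2, a ubiquitin ligase of this pathway, fell by 0.62 and 0.74 on the log2 scale with mOSM and hlOSM (limma, adjusted p = 0.000721 and 8.44e-05).

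Of 13 genes for inflammasomes and the processing of interleukin-1 family members, 8 were tested. With mLIF 0 passed (limma), 2 of them with an unadjusted p under 0.05. With mOSM 2 rose and 1 fell, beside 15.4% and 15.8% of all genes, and 1 in place of 2 rose with the replicate block. With hlOSM 2 rose and 2 fell, beside 18.2% and 19.8%. Nlrp3, the sensor of the best-known inflammasome, reached at most 3 normalized counts, and Casp1, which cleaves the interleukin-18 precursor, had 2 to 18 and was not tested.

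Casp4, a caspase of the non-canonical inflammasome, had 21, 29 and 20 normalized counts in PBS, 42, 32 and 28 in mLIF, 52, 54 and 76 in mOSM and 52, 48 and 60 in hlOSM. The OSM-treated libraries lay above all others. It rose by 1.34 with mOSM (adjusted p = 5.91e-06) and 1.17 with hlOSM (adjusted p = 2.43e-05) on the log2 scale, and its value with mLIF was 0.52 (adjusted p = 0.0702), all from limma.

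Pycard, the adaptor that links sensors to caspase-1, went the other way. It had 16, 31 and 30 normalized counts in PBS, 11, 13 and 14 in mOSM and 14, 11 and 7 in hlOSM, all of which were below the PBS libraries. It fell by 1.18 on the log2 scale with hlOSM (limma, adjusted p = 0.00272) and by 0.91 with mOSM (limma, adjusted p = 0.0198). The call with mOSM was lost without PBS replicate 2 (−0.75, adjusted p = 0.0961), PBS replicate 3 (−0.78, adjusted p = 0.0893) or mOSM replicate 1 (−0.82, adjusted p = 0.0711), all from limma.

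Around Il15, few ligands of the common gamma chain family were detected. Of 7 ligands, with thymic stromal lymphopoietin counted in, 3 were tested, namely Il15, Il7 and Tslp. Tslp, which acts through the interleukin-7 receptor chain, had 87, 82 and 91 normalized counts in PBS and 63, 66 and 62 in mLIF. It had 9, 9 and 11 in mOSM and 10, 10 and 9 in hlOSM.

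No library of Tslp overlapped between PBS and any treatment. Its log2 fold change was −3.04 with mOSM (adjusted p = 3.13e-12) and −3.04 with hlOSM (adjusted p = 2.54e-12), and −0.44 with mLIF, which did not pass (adjusted p = 0.0845), all from limma. Il7 was low, at 3 to 14 normalized counts. With mLIF its log2 fold change was 0.50 and did not pass (limma, adjusted p = 0.407). Il7 passed the filter on low values only through OSM-treated libraries. Its log2 fold changes with mOSM and hlOSM, 0.61 and 0.93, are therefore given without a p.

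Of 13 receptors and transducers of the common gamma chain family, 7 were tested. With mLIF 2 rose and 0 fell, with mOSM 3 rose and 1 fell, and with hlOSM 3 rose and 0 fell, where the shares of all genes raised were 5.47%, 15.4% and 18.2%. The signaling chains that interleukin-15 needs on a responding cell, Il2rb and Il2rg, reached at most 7 and 6 normalized counts. Il4ra and Jak3 rose with all 3 cytokines, and the receptor chains Il15ra and Crlf2 did not pass with any.

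Il4ra, the receptor chain for interleukin-4 and interleukin-13, had 170, 149 and 151 normalized counts in PBS and 190, 216 and 232 in mLIF. It had 524, 508 and 532 in mOSM and 535, 545 and 543 in hlOSM, so that the conditions with OSM stood clear of the others. Its log2 fold change was 0.44 with mLIF (adjusted p = 0.000562), 1.73 with mOSM (adjusted p = 8.24e-14) and 1.78 with hlOSM (adjusted p = 4.33e-14), all from limma.

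Jak3, the kinase bound to the common gamma chain, had 21, 16 and 19 normalized counts in PBS, 28, 31 and 29 in mLIF, 37, 38 and 39 in mOSM and 44, 49 and 49 in hlOSM. The 4 conditions did not overlap, and how many other genes separate in this way was not counted. Between hlOSM and mOSM the log2 difference of Jak3 was 0.31 and did not pass (limma, adjusted p = 0.676). Its log2 fold change was 0.63 with mLIF (adjusted p = 0.0112), 1.00 with mOSM (adjusted p = 2.75e-05) and 1.30 with hlOSM (adjusted p = 5.88e-07), all from limma. Without PBS replicate 2 the value with mLIF was 0.53 (limma, adjusted p = 0.0526). Stat5a rose with both OSM proteins, by 0.60 and 0.75 on the log2 scale (limma, adjusted p = 0.000613 and 4.09e-05), while its paralogue Stat5b fell by 0.24 with mOSM (limma, adjusted p = 0.00722).

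**Figure D4:**
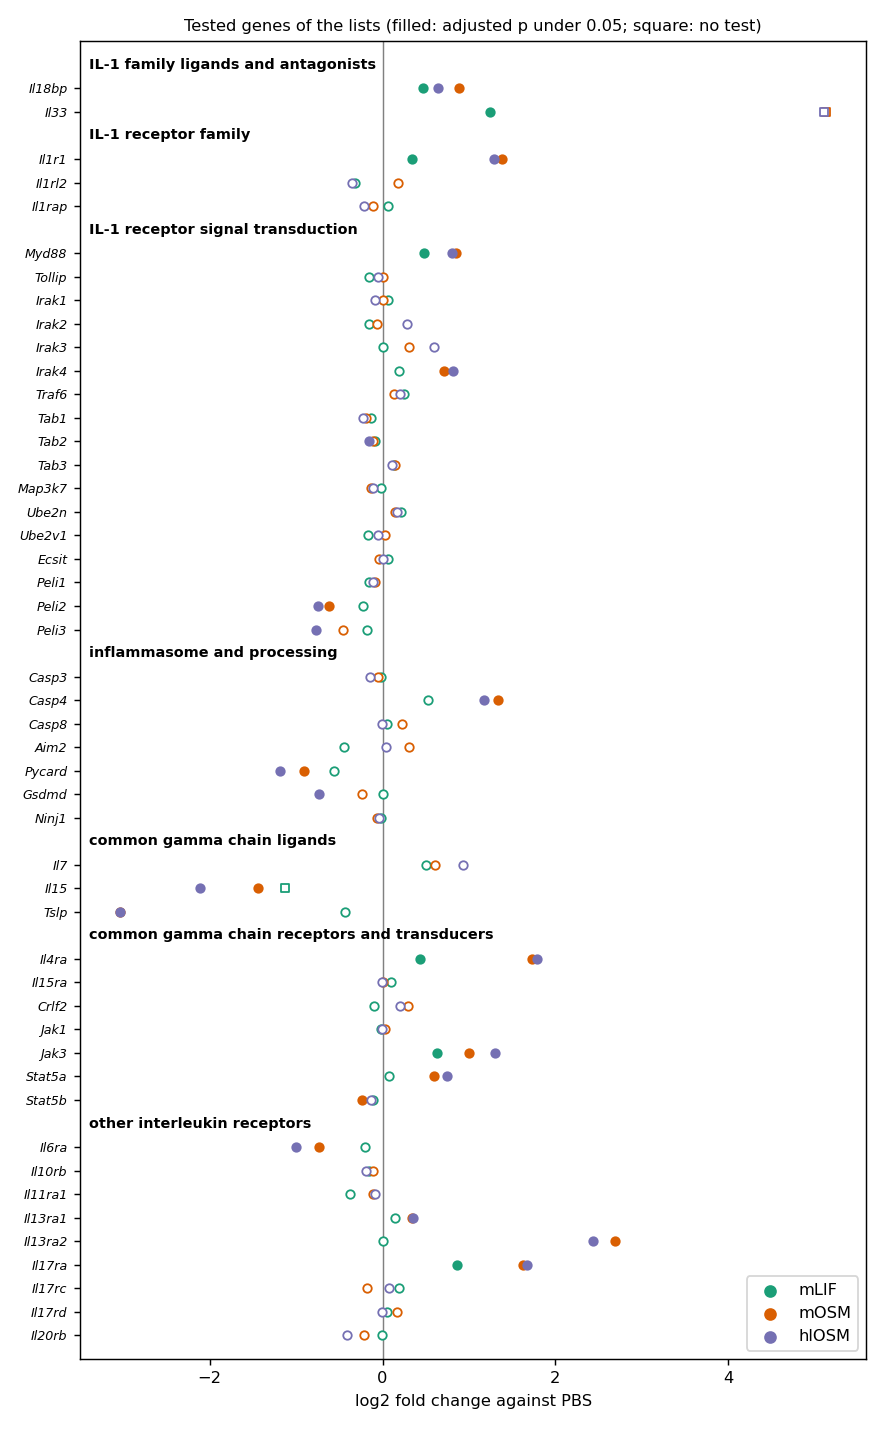
Log2 fold change against PBS (x axis) of tested genes of the 7 lists of ligands, receptors and transducers, with a color for each cytokine, filled where the adjusted p was under 0.05 and square where no test is given. Il33 stands at 5.13 and 5.11, Tslp at −3.04 with both OSM proteins, and most transducers such as Irak1 or Map3k7 lie near 0. The filled circles of Il13ra2 are not read as calls, since it passed the filter on low values through the OSM-treated libraries.

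The genes with changes most like those of Il33 were found by the distance between the 3 log2 fold changes against PBS, among 8493 protein-coding genes whose normalized counts averaged 50 or more. They were Serpinb2 (distance 1.10), Kbtbd11 (1.16), Cpxm1 (1.82), Adamts4 (1.92) and Abi3bp (1.98). Serpinb2, an inhibitor of plasminogen activators, had means of 7.33, 13.7, 182.0 and 158 normalized counts in PBS, mLIF, mOSM and hlOSM. Kbtbd11 had 9.33, 45.0, 234 and 292. The matrix protease Adamts4 had 14.0, 26.0, 207 and 208.0. The search by distance favours genes that, like Il33, differ little between the OSM proteins, and these genes were also low in PBS. None of the 5 reached the log2 fold change of Il33 with mOSM, 5.13, which follows from how Il33 was chosen.

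The genes closest to Il15 were Abca12 (distance 0.322), Asb15 (0.387), Asb2 (0.447), Angpt1 (0.562) and Prlr (0.569). Asb2 and Asb15 encode substrate receptors of ubiquitin ligases known from striated muscle. Asb15 had means of 283, 166, 94.7 and 63.7 normalized counts in PBS, mLIF, mOSM and hlOSM, and Asb2 had 278, 147, 95 and 81.3. Angpt1, the ligand of the endothelial receptor Tie2, had 113, 67.7, 36.3 and 30.3. In all 5 genes the mean fell in the order PBS, mLIF, mOSM and hlOSM, as it did for Il15, an order that the search by distance favours.

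For Il1r1 the same search, added after its values were seen, gave Sdc1 (distance 0.0923), Pros1 (0.140), Ubash3b (0.152), Gfpt2 (0.159) and Als2cl (0.178). The syndecan gene Sdc1 had means of 77.0, 91.3, 201 and 189 normalized counts. The distances around Il1r1 were smaller than those around Il33, as the changes are smaller. These are likenesses over 3 comparisons that share their PBS libraries, and genes with such changes were searched for in the same 12 libraries.

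**Figure D5:**
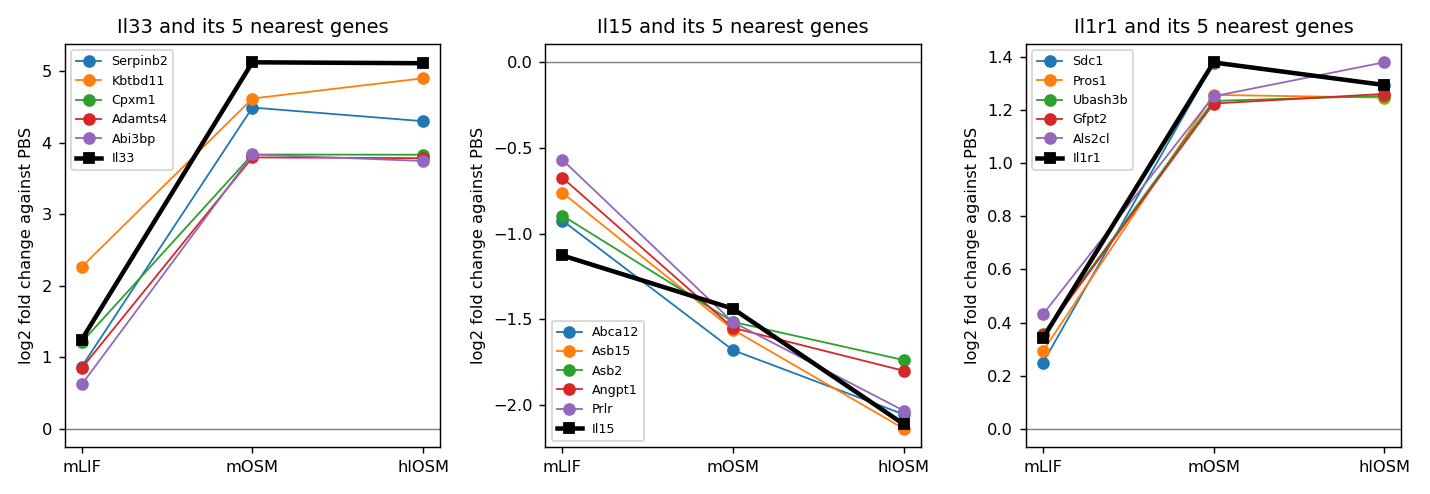
Log2 fold change against PBS (y axis) with mLIF, mOSM and hlOSM for Il33, Il15 and Il1r1 (black squares) and the 5 genes nearest to each (circles), and lines that join the values of a gene without implying an order. Il33, chosen for its rise with OSM, stands at 5.13 and 5.11 with mOSM and hlOSM, while the neighbours of Il1r1 lie within 0.178 of it.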

How the data were processed

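RNA of primary cardiomyocytes was sequenced in 12 libraries, 3 per condition, grouped by the sample titles. The authors aligned reads to mm10 with STAR 2.7.7a and counted those of single genes with featureCounts 1.6.5. The values the authors deposited are scores, namely normalized counts rounded to whole numbers, by a normalization that the sources used here do not name, so no count model was used and depth is unknown. Value columns that matched no sample numbered 0.

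Differences were tested in R 4.3.3 with the package limma 3.58.1 (lmFit, eBayes with trend) on log2(normalized count + 1) in 1 fit of all 12 libraries. It held 13184 genes with at least 10 in at least 3 libraries, with two-sided p-values, Benjamini-Hochberg adjustment and a threshold of 0.05. The fit was tested on simulated data. Promoter letters were searched with Python 3.11.15 on both strands. List and marker medians are descriptions.

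Named were the 7 members, the 2 genes of each list of ligands, receptors and transducers with the largest change past the threshold per cytokine, and the 5 nearest genes to Il33 and to Il15. Others named (Peli2, Stat5a, Stat5b, Il1rl2, cell type markers, genes at low levels, the genes near Il1r1, and in the closing section Il13ra1 and Il6ra) were picked after their values were seen. A gene of the inflammasome list is counted but not reported here. The members and lists were chosen with earlier results of these data known.

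Alternatives were pseudocounts, filters, rescaling, a robust fit, only the libraries compared, a replicate block, stricter thresholds and leaving out each library.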

Additional observations from a re-analysis of the deposited data

How the results depend on the processing

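No value past the threshold changed its sign under these alternatives. Values near 0 did when a library was left out, such as Il15ra with mLIF (−0.03 without PBS replicate 1) and with hlOSM (0.06 without PBS replicate 2) and Il33 between hlOSM and mOSM (0.12 without mOSM replicate 3). Il33 and Il1r1 were the tested members past the threshold with mLIF, which raised 5.47% of all genes tested. Neither passed with an adjusted p under 0.01. Both were also lost without PBS replicate 3, without mLIF replicate 2 and without mLIF replicate 3. The log2 fold change of Il33 with mLIF stayed 1.25 but did not pass with a robust fit (limma, adjusted p = 0.165) or with only the libraries compared (limma, adjusted p = 0.0856), and it was 0.75 to 1.75 when a library was left out. That of Il1r1 with mLIF was then 0.21 to 0.43. With a pseudocount of 5, that of Il33 was 4.36 with mOSM and 4.35 with hlOSM. A filter at 50 left no value for Il13ra2, Jak3 and Pycard.

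With the replicate block, Il33 and Il1r1 with mLIF (limma, adjusted p = 0.0303 and 0.0431) and Il1r1 and Il15 with both OSM proteins stayed past the threshold, and 0 members passed between hlOSM and mOSM. Over all genes the replicate block left 784 of 1307 calls with mLIF, 3330 of 4120 with mOSM, 4120 of 5002 with hlOSM and 2 of 14 between hlOSM and mOSM. Il18bp with mLIF did not pass with it (limma, adjusted p = 0.0930), nor did Il6ra with mOSM (limma, adjusted p = 0.0683). Deviations of libraries with the same number correlated at −0.41 to −0.15 (18 pairs), and those with other numbers at 0.0044 to 0.33 (36 pairs). Averaged over conditions, the difference between replicates 3 and 1 varied over 6626 genes with an SD of only 0.0019. With the replicate numbers mixed among conditions this SD was 0.085. Almost no effect of the replicate number was thus left in the deposited values. Negative correlations would follow from removing it, and the check cannot tell whether the numbers paired the libraries. If it was removed, p-values without the block are too small.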

Other observations

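Most receptors of other interleukins did not pass. Of 22 such genes 9 were tested, with 1 raised and 0 lowered with mLIF, where 5.47% and 4.44% of all genes were. With each OSM protein 3 were raised, Il13ra2 included, and 1 was lowered, beside 15.4% and 15.8% of all genes with mOSM and 18.2% and 19.8% with hlOSM. Il17ra, the receptor chain for interleukin-17, had 146, 126 and 82 normalized counts in PBS, 190, 198 and 244 in mLIF, 333, 341 and 398 in mOSM and 329, 354 and 429 in hlOSM. PBS, mLIF and the OSM-treated libraries did not overlap. Its log2 fold change was 0.86 with mLIF (adjusted p = 0.000612), 1.63 with mOSM (adjusted p = 1.36e-08) and 1.67 with hlOSM (adjusted p = 6.03e-09), all from limma.

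Il13ra2, a decoy receptor for interleukin-13, had 1 normalized count in each PBS and mLIF library, 17, 9 and 11 in mOSM and 9, 8 and 13 in hlOSM. It passed the filter on low values through the OSM-treated libraries, so its rise by 2.69 with mOSM and 2.43 with hlOSM on the log2 scale is given without a p. Il13ra1, the signaling chain for interleukin-13, had 668, 647 and 632 in PBS, 823, 821 and 817 in mOSM and 789, 804 and 891 in hlOSM. It rose by 0.34 with mOSM (limma, adjusted p = 4.66e-05) and by 0.35 with hlOSM (limma, adjusted p = 2.37e-05). Il6ra, the receptor chain for interleukin-6, had 23, 28 and 25 in PBS, 11, 14 and 21 in mOSM and 15, 9 and 13 in hlOSM. It fell by 1.00 on the log2 scale with hlOSM (limma, adjusted p = 0.00331) and by 0.73 with mOSM (limma, adjusted p = 0.0317), a call lost with the replicate block (limma, adjusted p = 0.0683).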
